A study of Bos grunniens with 12 samples.

Results

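The genes described here were 8 regulators of transcription in late male germ cells, chosen by name: CREM, RFX2, TCFL5, MYBL1, SOX30, TBPL1, TAF7L and BRDT. Every row of the expression table with 1 of these symbols was taken, which gave 12 rows of 20953 for 7 of the 8 symbols. MYBL1 was not analysed here. CREM stood on 5 gene identifiers and RFX2 on 2, and the other 5 symbols stood on 1 each. Of the 12 rows, 9 had a mean of at least 0.5 FPKM over the input libraries and were tested.

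Testes of 6 healthy yaks (Bos grunniens) were sampled, 3 animals at 1.5 years, before sexual maturity, and 3 animals at 5 years, after it. Each animal gave an input library of fragmented poly(A) RNA and a library of the fragments bound by an antibody to N6-methyladenosine (m6A), a methyl mark on adenosines inside mRNA. The levels below are FPKM of the input libraries, that is fragment numbers divided by transcript length and by the mapped total of the library, and the m6A results are a deposited list of peaks that differ between the ages. No experimental agent was given and no gene was altered in either group. Per the methods, the testes of the animals aged 1.5 years were disinfected locally before collection, and these animals received penicillin and streptomycin after it.

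Testes of the younger animals came from surgical castration and those of the older animals were taken within 1 hour of slaughter, so that age and manner of collection cannot be told apart. The ages were taken from the sample titles, and the growth protocol gives the same 2 ages. A separate stage entry in the same record names the reverse stage for all samples, and its letters M and Y stand for the reverse of the groups that the study's methods give them to. The libraries are therefore called here the libraries labelled 1.5 years and the libraries labelled 5 years. TNP1, a transition protein that packs spermatid DNA, was present at 852 to 883 FPKM in the libraries labelled 1.5 years and at 201, 641 and 550 FPKM in replicates 1, 2 and 3 labelled 5 years. Spermatid transcripts were thus present in all 6 input libraries, including those labelled as taken before sexual maturity. Whether the titles or the stage entries are exchanged was not tested. Every direction below rests on the age in the title and would turn if the titles were exchanged.

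After meiosis, round spermatids switch on a large set of genes for the sperm head and tail before their chromatin is compacted and transcription stops. CREM is a cAMP-responsive activator that binds the promoters of many of these genes, and RFX2, TCFL5 and SOX30 are DNA-binding factors of late spermatocytes and spermatids. TBPL1 and TAF7L are relatives of parts of the general RNA polymerase II machinery, and BRDT is a testis protein that reads acetylated histones.

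Summed FPKM lay between 116187 and 139921 per input library. From 4563 to 4660 genes had a value of 0 in a given library, and the 10 most abundant genes took up 3.93% to 4.57%. The table gives no fragment number per gene, so that values near 0 carry no detection limit here. Replicate 1 labelled 5 years had the lowest sum and stood apart from the other 5 libraries in most rows described below. Values without this library are given beside the results that it moves most. In whole tissue, fewer cells of a type and less RNA per cell cannot be told apart.

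None of the 9 tested rows passed an adjusted p of 0.05 between the ages (limma, Benjamini-Hochberg over 12437 genes), a threshold that 4 genes, 0.0322% of those tested, passed. At an unadjusted p under 0.05, 1 row passed, TAF7L, which was higher in the libraries labelled 5 years. Over all genes tested 25.1% passed this threshold, 14.2% being higher and 10.9% lower. The libraries of the 2 ages did not overlap for 2 of the 9 rows, TAF7L (higher) and the main CREM row (lower). Over all genes tested 33.7% did not overlap, 19.8% being higher and 13.9% lower. Neither count of rows stood above its background share. By sign, 2 of the 9 rows had a positive and 7 a negative log2 fold change, with a median of -0.35. All genes tested had 6651 positive and 5786 negative values and a median of 0.04.

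**Figure D1:**
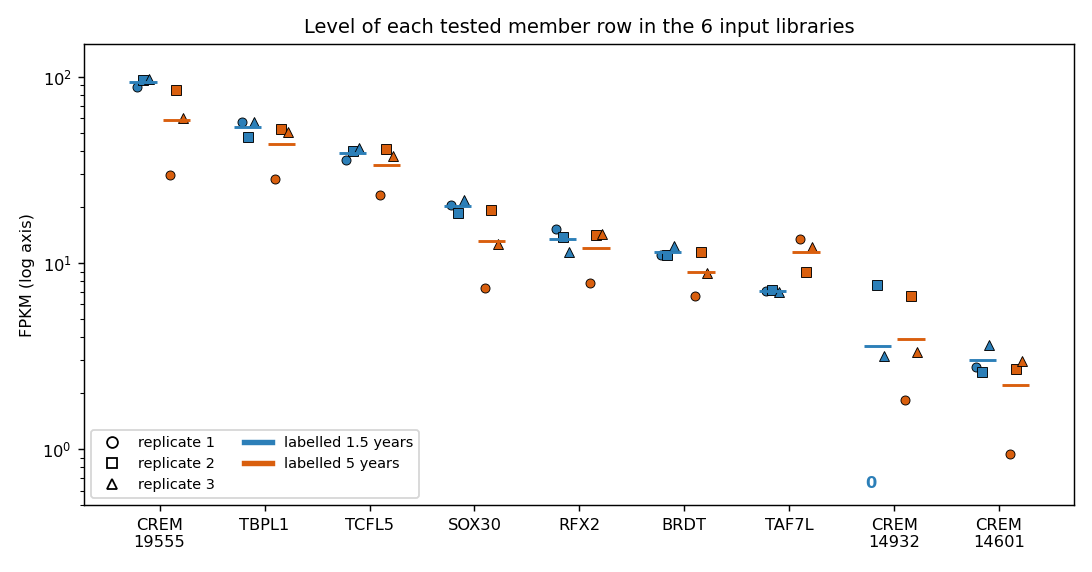
FPKM (log axis) of the 9 tested rows in the 6 input libraries, ordered by mean, with CREM rows marked by the last digits of their identifiers. Points are libraries, horizontal bars are means of 3 libraries, and the 0 marks a library listed at 0. Replicate 1 labelled 5 years, the orange circle, is the lowest orange point in every row but TAF7L, where at 13.4 FPKM it is the highest.

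The row of the symbol CREM with the highest mean (ENSBGRG00000019555), called here its main row, was at 88.3, 96.5 and 97.6 FPKM in replicates 1, 2 and 3 labelled 1.5 years and at 29.7, 84.8 and 60.4 FPKM in those labelled 5 years. All 3 libraries labelled 5 years were below all 3 labelled 1.5 years, replicate 1 by far the most and replicate 2 the least. The mean was 94.1 ± 5.06 FPKM (SD, n = 3) at 1.5 years and 58.3 ± 27.6 FPKM (SD, n = 3) at 5 years. The log2 fold change was -0.81 (SE 0.36, 95% confidence interval -1.66 to 0.03), with an adjusted p of 0.209 (limma). Without replicate 1 labelled 5 years the log2 fold change was -0.39 (adjusted p 0.263), and without replicate 2 labelled 5 years it was -1.15 (adjusted p 0.0434).

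The other CREM identifiers were far lower. ENSBGRG00000014601 was at 2.77, 2.59 and 3.64 FPKM at 1.5 years and at 0.944, 2.70 and 2.97 FPKM at 5 years, with a log2 fold change of -0.56 (SE 0.41, adjusted p 0.400, limma) that was -0.07 without replicate 1 labelled 5 years. Replicate 1 labelled 5 years was again the low library, and the other 5 libraries overlapped. ENSBGRG00000014932 was listed at 0 in replicate 1 labelled 1.5 years and was at 7.59 and 3.16 FPKM in replicates 2 and 3 and at 1.84, 6.63 and 3.33 FPKM at 5 years. Its log2 fold change of 1.39 (SE 1.49, adjusted p 0.557, limma) rests on the library listed at 0, and without that library it was -0.50. ENSBGRG00000016604 was listed at 0 in all 6 libraries. ENSBGRG00000019928 was listed at 0 in the 3 libraries labelled 1.5 years and in replicate 3 labelled 5 years, and was at 0.0757 and 0.0187 FPKM in the other two. How reads were divided among the identifiers that share the symbol is not given in the sources used here, so the level of CREM as a gene is uncertain.

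The identifiers under 1 symbol also differed in their deposited Gene Ontology (GO) terms. The 2 lower tested CREM rows, TCFL5 and SOX30 carried the term spermatogenesis, and the main RFX2 row carried spermatid development. The main CREM row, TAF7L, BRDT and the rows of CREM and RFX2 with the lowest values above 0 carried RNA-directed DNA polymerase activity, a retrotransposon function, in place of any term of transcription control. This held for 5 of the 12 rows and for 3523 genes of the table, or 16.8%. The symbols were taken as deposited, and for the main CREM row, TAF7L and BRDT it is uncertain whether the row is the regulator that the symbol names. The CREM rows with terms of transcription control had means of 2.60 and 3.76 FPKM over the 6 libraries.

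RFX2 controls genes of the sperm tail and of motile cilia. Its main row (ENSBGRG00000000923) was at 15.2, 13.8 and 11.4 FPKM in the libraries labelled 1.5 years and at 7.86, 14.2 and 14.3 FPKM in those labelled 5 years. A single library, replicate 1 labelled 5 years, lay below the rest. RFX2 had a log2 fold change of -0.19 (SE 0.26, 95% confidence interval -0.80 to 0.42), with an adjusted p of 0.644 (limma), and it turned to 0.09 without that library. The second RFX2 identifier, ENSBGRG00000000938, was at 0.0386 FPKM in replicate 1 labelled 1.5 years and was listed at 0 elsewhere.

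TCFL5 (ENSBGRG00000020529), a basic helix-loop-helix factor of spermatocytes and spermatids, was at 35.9, 40.0 and 41.7 FPKM at 1.5 years and at 23.3, 40.7 and 37.3 FPKM at 5 years. Apart from replicate 1 labelled 5 years, its levels lay between 35.9 and 41.7 FPKM. TCFL5 had a log2 fold change of -0.25 (SE 0.23, 95% confidence interval -0.79 to 0.29, adjusted p 0.491, limma), and -0.01 without that library.

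SOX30, an HMG-box activator needed for round spermatids to mature, stood on ENSBGRG00000015400. Its values were 20.6, 18.6 and 21.8 FPKM at 1.5 years and 7.33, 19.3 and 12.7 FPKM at 5 years. Replicates 1 and 3 labelled 5 years were below all 3 libraries labelled 1.5 years, and replicate 2 lay among them. For SOX30 the log2 fold change was -0.73 (SE 0.33, 95% confidence interval -1.50 to 0.03), with an adjusted p of 0.211 (limma). It was -0.37 (adjusted p 0.348) without replicate 1 labelled 5 years and -1.07 (adjusted p 0.0331) without replicate 2. The profile of SOX30 over the 6 libraries was the closest of the regulators to that of the main CREM row, at a mean absolute difference of 0.0929 between their centred log2 values.

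Of the general machinery, TBPL1 (ENSBGRG00000019080), the TATA-box binding protein relative that postmeiotic promoters use, was at 56.9, 47.3 and 57.1 FPKM at 1.5 years. In the libraries labelled 5 years it was at 28.3, 52.6 and 50.3 FPKM. Replicate 1 labelled 5 years was low and the other 5 libraries overlapped. TBPL1 had a log2 fold change of -0.35 (SE 0.26, 95% confidence interval -0.96 to 0.26, adjusted p 0.409, limma), and -0.06 without that library.

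TAF7L (ENSBGRG00000020226), the germ-cell paralog of the TFIID subunit TAF7, was the only main row with a higher mean in the libraries labelled 5 years. It was at 7.12, 7.19 and 6.96 FPKM in the libraries labelled 1.5 years and at 13.4, 8.92 and 12.2 FPKM in those labelled 5 years. All 3 libraries labelled 5 years were above all 3 labelled 1.5 years, and the library that was lowest for the other regulators was highest for TAF7L. The mean was 7.09 ± 0.122 FPKM (SD, n = 3) at 1.5 years and 11.5 ± 2.32 FPKM (SD, n = 3) at 5 years. TAF7L had a log2 fold change of 0.67 (SE 0.18, 95% confidence interval 0.25 to 1.09), with an adjusted p of 0.154 and an unadjusted p of 0.00692 (limma). With each library left out in turn it lay between 0.55 and 0.84, and without replicate 2 labelled 5 years the adjusted p was 0.0193.

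BRDT (ENSBGRG00000001903), the bromodomain protein, was at 11.0, 11.1 and 12.3 FPKM at 1.5 years and at 6.67, 11.4 and 8.90 FPKM at 5 years. Replicates 1 and 3 labelled 5 years were below the range of the libraries labelled 1.5 years and replicate 2 lay inside it. BRDT had a log2 fold change of -0.38 (SE 0.21, 95% confidence interval -0.87 to 0.11, adjusted p 0.282, limma). It was -0.18 without replicate 1 labelled 5 years and -0.57 (adjusted p 0.0639, limma) without replicate 2.

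**Figure D2:**
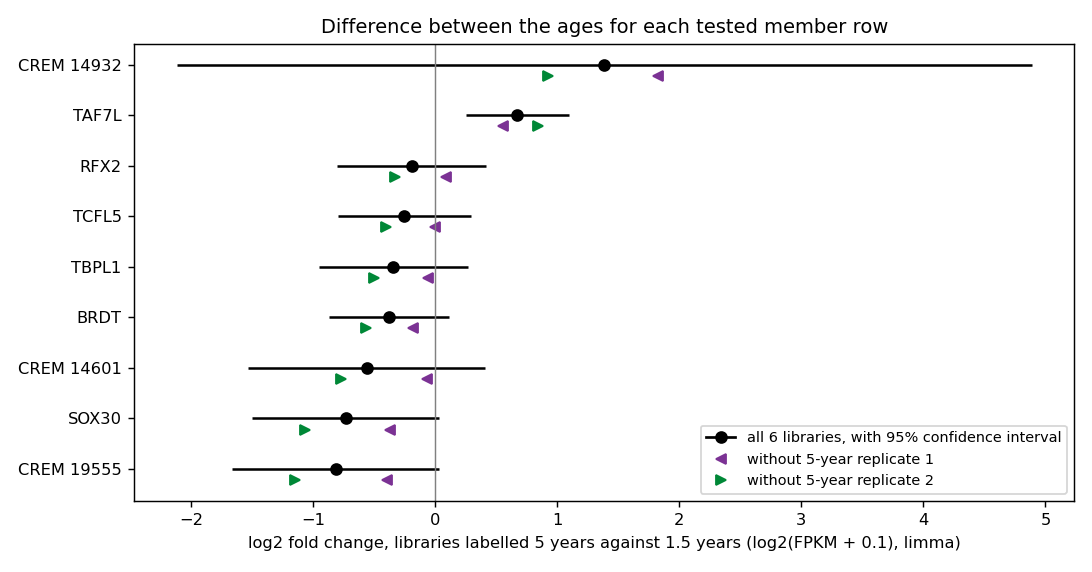
Log2 fold change of each tested row, libraries labelled 5 years against 1.5 years, on log2(FPKM + 0.1). Black points use all 6 libraries, lines are 95% confidence intervals, and triangles leave out replicate 1 (purple) or replicate 2 (green) labelled 5 years. The interval of TAF7L, 0.25 to 1.09, lies to the right of 0 and all other intervals cross it.

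The comparison turned on replicates 1 and 2 labelled 5 years. Without replicate 2, the main CREM row, SOX30 and TAF7L passed an adjusted p of 0.05 (limma), a threshold that 2526 of 12450 genes then passed. Without replicate 1, none of the regulators passed, and the unadjusted p was under 0.05 (limma) for TAF7L (0.0130) and the main CREM row (0.0463). In that setting 1216 of 12345 genes were higher and 1063 lower at the unadjusted threshold, so such calls were common over the whole table. The median over the 9 rows lay between -0.51 and -0.06 with each library left out in turn. Scaling all libraries to the same sum moved the median of all genes to 0.17, from 0.04, and on that scale the log2 fold changes were 0.80 for TAF7L, -0.69 for the main CREM row and -0.61 for SOX30. Scaling by the median ratio gave 0.61, -0.88 and -0.80 for the same rows. The number of genes higher and lower at an unadjusted p under 0.05, 1767 and 1356 as deposited, was 2429 and 1053 with equal sums and 1411 and 1704 by the median ratio. No tested row of the regulators changed sign under either scaling.

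By mean FPKM over the 6 libraries, the order of the main rows was CREM (76.2), TBPL1 (48.7), TCFL5 (36.5), SOX30 (16.7), RFX2 (12.8), BRDT (10.2) and TAF7L (9.30). The places of CREM, TAF7L and BRDT rest on rows whose identity is uncertain by their GO terms, and either CREM row with terms of transcription control would stand last. The main CREM row was above TBPL1, TBPL1 above TCFL5 and TCFL5 above SOX30 in 6 of 6 libraries. The lower part of the order was not the same at both ages. SOX30 was above RFX2 in 3 of 3 libraries labelled 1.5 years and in 1 of 3 labelled 5 years, and BRDT was above TAF7L in 3 of 3 and 1 of 3. RFX2 was above BRDT in 5 of 6 libraries. TAF7L ranked 7 of 7 in every library labelled 1.5 years and 4, 7 and 6 of 7 in replicates 1, 2 and 3 labelled 5 years.

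The ratio of TAF7L to each of the other 6 main rows within a library does not depend on the scaling of the library. TAF7L over CREM was 0.0755 ± 0.00476 (SD, n = 3) at 1.5 years and 0.450, 0.105 and 0.202 in replicates 1, 2 and 3 labelled 5 years. TAF7L over SOX30 was 0.350 ± 0.0333 (SD, n = 3) and then 1.83, 0.462 and 0.966, and TAF7L over BRDT was 0.621 ± 0.0468 (SD, n = 3) and then 2.01, 0.782 and 1.37. Replicate 1 was the highest for each ratio, and without it the mean at 5 years went from 0.253 to 0.154 over CREM, from 1.09 to 0.714 over SOX30 and from 1.39 to 1.08 over BRDT. All 6 ratios were higher in each library labelled 5 years than in any labelled 1.5 years. With 3 against 3 libraries an exact two-sided permutation p cannot be under 0.1. The ratios share their numerator and were formed after TAF7L was known to be higher without overlap. Their separation therefore adds no support to the TAF7L result.

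**Figure D3:**
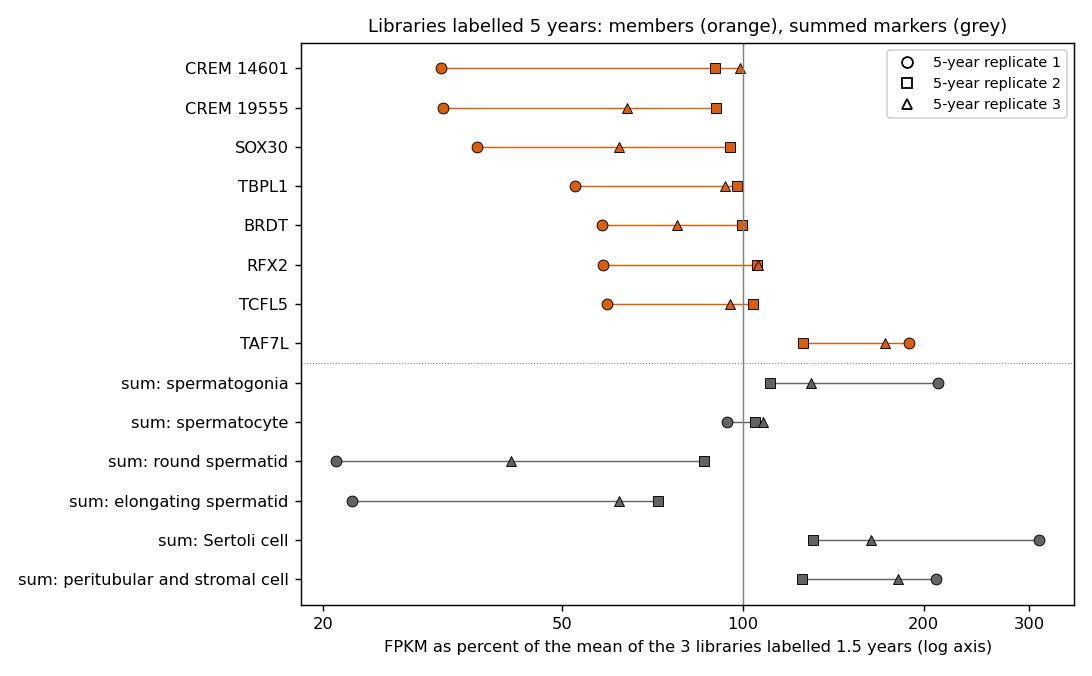
FPKM in each of the 3 libraries labelled 5 years as a percent of the mean of the 3 libraries labelled 1.5 years (log axis), for the regulators (orange) and for summed cell type markers (grey). The CREM row listed at 0 in a library is left out. Replicate 1 (circle) is at 31.5% to 59.4% for the regulators other than TAF7L, at 188.9% for TAF7L and at 311.8% for the Sertoli cell sum.

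Some of the cell type marker sums, but not all, moved with these levels in the same libraries. In replicates 1, 2 and 3 labelled 5 years the summed FPKM of the round spermatid markers was 21.0%, 86.0% and 41.1% of the mean at 1.5 years, and that of the elongating spermatid markers was 22.4%, 72.3% and 62.3%. The main CREM row was at 31.6%, 90.1% and 64.2%, and SOX30 at 36.0%, 95.1% and 62.2%. The order of the 3 libraries, replicate 2 highest and replicate 1 lowest, was the same for both spermatid sums, CREM and SOX30, and also for TBPL1, TCFL5 and BRDT. RFX2, at 58.4%, 105.5% and 105.9%, and TBPL1, at 52.6%, 97.8% and 93.5%, were low in replicate 1 only. The spermatocyte sum, at 94.1%, 104.9% and 108.2%, stayed near the mean of the libraries labelled 1.5 years. SYCP3, of the synaptonemal complex, had a log2 fold change of 0.32 (unadjusted p 0.138, limma).

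The sums of Sertoli cell markers were 311.8%, 131.1% and 163.5% of the mean at 1.5 years, those of peritubular and stromal cell markers 209.6%, 125.3% and 181.1%, and those of spermatogonia 211.8%, 110.8% and 130.1%. TAF7L, at 188.9%, 125.9% and 172.4%, was highest and lowest in the same libraries as these sums. All 6 tested Sertoli cell markers were higher at an unadjusted p under 0.05 without overlap, with a median log2 fold change of 0.84, among them INHA, an inhibin subunit (0.95), and WT1, a transcription factor of these cells (0.93). Their sum was 73.4 to 85.7 FPKM at 1.5 years and 107 to 254 FPKM at 5 years. Of 4 tested round spermatid markers 3 were lower at an unadjusted p under 0.05 (TSSK3 -1.30, TXNDC8 -1.30 and ACRV1 -1.24 on the log2 scale), and of 4 tested elongating spermatid markers 4 were lower (ODF1 -1.40, GAPDHS -1.23, HMGB4 -1.08 and TNP1 -1.07). The round spermatid sum was 132 to 167 FPKM at 1.5 years and 30.8 to 126 FPKM at 5 years, and the elongating spermatid sum was 1154 to 1195 FPKM and 262 to 849 FPKM. Leaving out replicate 1, 2 or 3 labelled 1.5 years gave 4, 4 and 3 of 6 Sertoli cell markers, 1, 2 and 0 of 4 round spermatid markers and 1, 1 and 1 of 4 elongating spermatid markers past that threshold. Without replicate 1 labelled 5 years 5, 2 and 4 passed. The medians then moved from 0.84 to 0.58, from -1.27 to -0.78 and from -1.16 to -0.63. With all libraries, 14.2% of genes tested were higher and 10.9% lower at that threshold, and 19.8% were higher without overlap.

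Of the other lists, 1 of 7 spermatogonial markers was higher (ID4, a stem cell factor, 1.10) and 0 of 9 spermatocyte markers passed at an unadjusted p under 0.05. Over all genes tested 14.2% were higher and 10.9% lower at this threshold. Of 6 peritubular and stromal markers 4 were higher (DES 0.97, COL1A2 0.93, ACTA2 0.84 and MYH11 0.56). Of 6 macrophage markers 2 were higher (C1QB 1.30 and C1QA 1.07) and 2 lower (AIF1 -1.27 and CD163 -1.16). STAR, 1 of 2 tested Leydig cell markers, was lower (-0.92), and 0 of 4 endothelial markers passed. With a library left out, 2 of 6 peritubular and stromal markers were higher without replicate 3 labelled 5 years. Without replicate 2 labelled 5 years 3 of 7 spermatogonial markers were higher. Of all genes 1035 of 12395 and 2717 of 12450 were higher in those settings. Of the macrophage markers 1 was higher without replicate 1 of either age, and 1 was lower without replicate 2 or 3 labelled 1.5 years. The 2 erythroid markers in the table were under the minimum level. None of the marker genes in the table was at 0 in all 6 libraries, and 0 passed an adjusted p of 0.05 (limma). The part of cell composition in the levels of CREM, SOX30, TAF7L and the other regulators was not tested.

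The postmeiotic genes listed for the CREM and TBPL1 programme were lower together. The list was chosen with earlier results of these data known, so its counts are a description and do not test the regulators. Of 16 such genes 9 were in the table and tested, and 9 of 9 were lower in the libraries labelled 5 years at an unadjusted p under 0.05, with 8 of 9 not overlapping and a median log2 fold change of -1.24. Over all genes tested 10.9% were lower at this threshold and 13.9% were lower without overlap. ODF1, of the outer dense fibres of the sperm tail, was at 59.9 ± 7.37 FPKM (SD, n = 3) at 1.5 years and 27.5 ± 17.3 FPKM (SD, n = 3) at 5 years, a log2 fold change of -1.40. ACE, whose testis form is made in spermatids, had a log2 fold change of -1.37. The median of the list was below the fold change of the main CREM row (-0.81) and of TBPL1 (-0.35), and 0 of its genes passed an adjusted p of 0.05 (limma). Without replicate 1 labelled 5 years the median was -0.73. In that setting 8 of 9 were lower at an unadjusted p under 0.05, as were 1063 of 12345 genes. Without replicate 2 labelled 5 years 6 of 9 passed an adjusted p of 0.05 (limma), a threshold that 2526 of 12450 genes then passed. Leaving out replicate 1, 2 or 3 labelled 1.5 years left 4, 5 and 4 of 9 at an unadjusted p under 0.05. Of all genes 641 of 12453, 894 of 12454 and 621 of 12455 were then lower. All 9 stayed negative whichever library was left out. The genes TNP1, ODF1 and GAPDHS of this list also stand among the elongating spermatid markers, and ACRV1 among those of round spermatids.

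The list of cilium and axoneme genes of the RFX2 programme, which also holds the transcription factors FOXJ1 and RFX4, had the same sign throughout. All 17 that were tested, of 18 in the table and 21 listed, had a negative log2 fold change, with a median of -0.40, and 4 of 17 passed an unadjusted p of 0.05. These were TEKT1, a tektin of the axoneme (-0.86), RFX4, an RFX factor (-0.72), SPAG17, of the central pair (-0.70), and DRC1, of the dynein regulatory complex (-0.66). The list's sum was 49.6%, 93.7% and 79.1% of the mean at 1.5 years in replicates 1, 2 and 3 labelled 5 years, against 58.4%, 105.5% and 105.9% for RFX2. Without replicate 1 the median was -0.16, with 13 of 17 negative and 2 passing an unadjusted p of 0.05. Leaving out any 1 of the libraries labelled 1.5 years left 1 of 17 past that threshold, and leaving out replicate 2 or 3 labelled 5 years gave 9 and 3. Among all genes tested in the 6 libraries, 5786 of 12437 were negative and 10.9% were lower at an unadjusted p under 0.05. Without replicate 2 labelled 5 years 2279 of 12450 genes were lower at this threshold, and without replicate 3 964 of 12395.

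The pachytene genes listed for the MYBL1 programme include genes of the piRNA pathway. Of 12 tested genes 0 passed an unadjusted p of 0.05 (limma) and 0 an adjusted one, 5 had a positive and 7 a negative log2 fold change, and the median was -0.16. With all libraries, 25.1% of all genes tested passed the unadjusted threshold. Without replicate 2 labelled 5 years 3 of 12 were lower at an unadjusted p under 0.05, as were 2279 of 12450 genes. With any other library left out 0 of 12 passed.

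Of 13 tested cofactors of the regulators 1 was higher and 2 were lower at an unadjusted p under 0.05, beside 14.2% and 10.9% of all genes tested. FHL5, the testis coactivator of CREM also known as ACT, was at 18.4, 17.2 and 19.7 FPKM at 1.5 years and 4.35, 12.5 and 8.53 FPKM at 5 years. KIF17, the kinesin that moves FHL5 out of the nucleus, was at 169, 151 and 154 FPKM and at 50.7, 125 and 94.6 FPKM. For both genes all libraries labelled 5 years were below all libraries labelled 1.5 years, with log2 fold changes of -1.24 (unadjusted p 0.00945, limma) and -0.90 (unadjusted p 0.0269, limma). The main CREM row, whose identity is uncertain, was also lower without overlap. In the CREM rows with terms of transcription control the ages overlapped. TAF4B, a TFIID subunit of germ cells, was at 4.99, 5.33 and 4.59 FPKM and at 9.85, 6.70 and 7.44 FPKM, without overlap and in the direction of TAF7L (0.66, unadjusted p 0.00768). The median of the cofactors was 0.04, and 0 of 13 passed an adjusted p of 0.05 (limma). Without any 1 of the libraries labelled 1.5 years 1 cofactor was lower, and 2 and 3 were higher without replicates 1 and 2 labelled 5 years. Of all genes 1216 of 12345 and 2717 of 12450 were higher without replicates 1 and 2 labelled 5 years.

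Of 17 tested relatives of the regulators, listed as paralogs in other tissues, 2 were higher and 3 lower at an unadjusted p under 0.05. Of all genes tested 14.2% were higher and 10.9% lower. The median log2 fold change of the relatives was -0.00. Whether these relatives are also used in germ cells was not tested. SOX4 (1.01) and the bromodomain gene BRD3 (0.69) were higher, while TCF3 (-0.93), RFX1 (-0.85) and SOX5 (-0.64) were lower. RFX1 was at 33.4 ± 2.94 FPKM (SD, n = 3) at 1.5 years and 19.7 ± 8.69 FPKM (SD, n = 3) at 5 years, a higher mean level than that of RFX2 at both ages. Leaving out each library in turn gave 0 to 6 lower relatives. There were 0 without replicate 1 or 3 labelled 1.5 years. There was 1 without replicate 2 labelled 1.5 years or replicate 3 labelled 5 years. Without replicate 2 labelled 5 years 6 were lower and 5 higher, beside 2279 and 2717 of 12450 genes. None of the 17 passed an adjusted p of 0.05 (limma).

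Profiles were also compared across the 6 libraries, as the mean absolute difference between log2(FPKM + 0.1) values centred on each gene's mean, among 112 genes of the lists. The nearest list gene was KIF17 for the main CREM row (0.0995), RFX1 for SOX30 (0.0707), GTF2A1L, a testis form of TFIIA, for TBPL1 (0.0444), and MAEL, of the piRNA pathway, for BRDT (0.0413). ADAM2, a sperm surface protein, was nearest to TCFL5 (0.0620) and CCDC40, an axoneme assembly gene, to RFX2 (0.0795). The nearest list gene to TAF7L was SOX9, a Sertoli cell marker (0.0636), while the nearest of the regulators, RFX2, was at 0.496. The mean absolute deviation of TAF7L from its own mean was 0.338, so RFX2 was farther from it than a flat profile. CCNA1 was nearest to the CREM row ENSBGRG00000014601 (0.154) and CYP11A1 to ENSBGRG00000014932 (1.31). The deviation of ENSBGRG00000014932 from its own mean was 1.55, so CYP11A1 was not close to it. The points share libraries, and these likenesses are descriptions only.

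Of 1438 m6A peaks deposited as different between the ages, 2 lay on the regulators, both on the main RFX2 row. Thus 1 of the 12 rows carried a peak, where 5.63% of the genes of the table did, and 1 of the 9 tested rows, where 9.29% of tested genes did. CREM, TCFL5, SOX30, TBPL1, TAF7L and BRDT carried none in this list. The counts were too small to set the regulators apart from the table.

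RFX2 is annotated on the plus strand of chromosome 8 of LU_Bosgru_v3.0, from 19101827 to 19210934, a length of 109108 bp (transcript ENSBGRT00000001689, 18 exons). The upstream peak spans chr8:19181722-19187802, is 6081 bp wide and is annotated to exon 6, beginning 79895 bp from the annotated start. The downstream peak spans chr8:19194978-19197097, is 2120 bp wide and is annotated to exon 13, 93151 bp from the start. A gap of 7175 bp separates them. These are lengths on the genome, introns included.

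**Figure D4:**
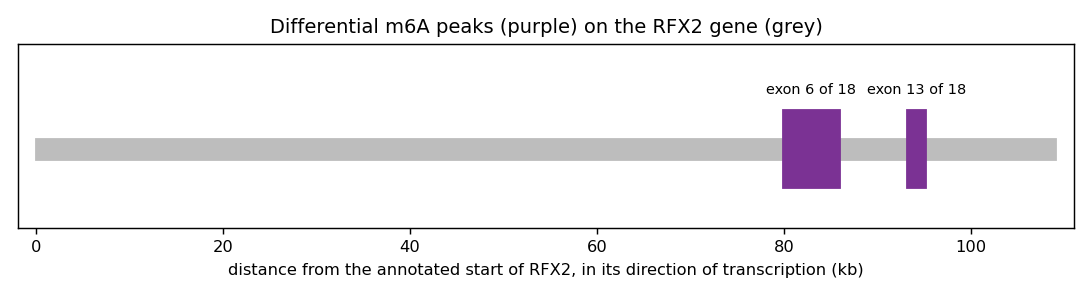
Differential m6A peaks (purple) along the RFX2 gene (grey), by distance in kb from its annotated start in the direction of transcription. The peaks begin 79895 and 93151 bp from the start and lie in the later part of a gene of 109108 bp.

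Both RFX2 peaks were wide for this list, in which the median width was 398 bp and 446 peaks, or 31%, were over 1000 bp. Among all widths the upstream peak stood at percentile 89.9 and the downstream peak at percentile 77.7. With peaks of at most 1000 bp alone, no regulator carried a peak. Of 1207 genes with a differential peak, 176 (14.6%) carried 2 or more, as RFX2 did. The list used here gives neither a size nor a direction for a peak, and no value per animal, so the change of m6A on RFX2 cannot be set against its input level. Of 13 tested cofactors GTF2A1L, CREBBP and TAF4B carried a differential peak, and of 17 tested cilium genes CCDC39 and RSPH9 did, where 9.29% of tested genes carried one. The peak listed for GTF2A1L is annotated to an exon of another identifier, ENSBGRG00000011219.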

How the data were processed

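FPKM values per gene and input library were deposited by the authors, as were the widths in bp of differential m6A peaks, measured on the genome. Per the methods, reads were trimmed with Trimmomatic, cleared of rRNA with SortMeRNA and aligned with HISAT2 (2.0.4 per the submitters' processing notes) to LU_Bosgru_v3.0, unique reads were kept, and MeTDiff compared the ages. The FPKM program is not given in the sources used here. Replicates are separate animals.

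The ages were compared in the 6 input libraries by limma 3.58.1 (R 4.3.3, eBayes with trend, two-sided), taking log2(FPKM + 0.1) of the 12437 genes that averaged at least 0.5 FPKM. A fold change on this scale understates changes of low genes. The code was tested on simulated data. Python 3.11.15, pandas 2.3.3 and matplotlib 3.10.9 did the rest. The peak lists of each age, the authors' GO enrichment and IP values by gene were not analysed here.

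The regulators and all lists were chosen with earlier results of these data known. Named were all rows of the regulators, at most 2 higher and 2 lower genes of each list with the largest change at an unadjusted p under 0.05, TNP1, SYCP3 and the nearest profiles. SOX5, SPAG17, DRC1, ACRV1, HMGB4, ACTA2, MYH11, GAPDHS and the list genes with peaks were named after their values were seen. Same-numbered replicates of the ages did not deviate together (correlations -0.0222, -0.0909 and 0.00668), so the numbers were not used as pairs. The counts of list genes with a library left out and the TAF7L ratios without replicate 1 were chosen after seeing the data. Other alternatives were other pseudocounts, filters, scalings, forms of eBayes, a replicate block, each library left out, and short or merged peaks.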

Additional observations from a re-analysis of the deposited data

How the results depend on the processing

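Of 144 values of the 9 tested rows under the alternatives, 139 kept their direction and their side of an adjusted p of 0.05, 3 passed it (TAF7L, SOX30 and the main CREM row, each without replicate 2 labelled 5 years) and 2 changed sign. These were RFX2, at 0.0896 without replicate 1 labelled 5 years (range -0.34 to 0.0896 with each library left out), and the CREM row ENSBGRG00000014932, at -0.50 without replicate 1 labelled 1.5 years (range -0.50 to 2.64). With each library left out, 0 to 3 of the regulators' rows passed an adjusted p of 0.05, 0 to 3 were lower at an unadjusted p under 0.05, and over all genes 0 to 2526 passed the adjusted threshold, with 1035 to 2717 higher and 621 to 2279 lower unadjusted. Libraries scaled by the median ratio gave 2 lower rows (SOX30 and CREM) in place of 0. The count of 4 genes past the adjusted threshold was 2 with a pseudocount of 0.01, 8 with all genes above 0, 2 with a mean FPKM of at least 1 and 9 with eBayes without trend. With the replicate number as a replicate block it was 1, and 1 row of the regulators, CREM, was lower unadjusted. The list medians near 0 changed sign when a library was left out: relatives -0.16 to 0.0609, cofactors -0.0112 to 0.14, pachytene genes -0.24 to 0.0301 and spermatocyte markers -0.0503 to 0.15, the last also at -0.0040. Short peaks of at most 1000 bp left 0 on the regulators. Depth could not be weighed, since the table gives no fragment number per gene.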
